A study of Mus musculus with 17 samples.

Results

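Interferon-stimulated genes are the genes that cells switch on when they sense interferon. The 42 described here are induced by type I or type II interferon. They were taken by symbol from a list of such genes, out of the 31245 genes counted in mouse lung. All 42 were in the count table and none fell to the filter, which kept the 26946 genes whose counts summed to 20 or more. The lungs came from 17 mice in 6 groups, which combined 3 genotypes with 2 kinds of drinking water. Wild-type mice (WT) were Sv/129 animals that were bought. PPARα null mice (KO), which lack the nuclear receptor PPARα, and humanized PPARα mice (KI), which carry its human form, were bred from heterozygous pairs of another colony. Colony and genotype therefore cannot be told apart in any comparison with WT, whereas KO and KI came from the same breeding. Exposed mice drank 6.2 μg/mL perfluorooctanoic acid (PFOA), a long-chain perfluoroalkyl acid that activates PPARα, in water with 0.5% sucrose from 6 weeks of age for 14 weeks, and vehicle mice drank the sucrose water alone. All ate the same custom diet modelled on adult human intake. WT vehicle had 2 libraries, because the authors left out another for its RNA quality, and every other group had 3, each from the lung of 1 mouse. All 6 KO mice were female, while the WT and KI groups held both sexes.

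Interferons are secreted proteins that bind receptors on the cell surface and act through the kinases JAK1, TYK2 and JAK2. Type I and III interferons assemble a complex with STAT2 and IRF9 that binds the interferon-stimulated response element (ISRE) in promoters, and type II interferon (interferon-γ) acts through the gamma-activated site (GAS). The induced genes encode antiviral enzymes, restriction factors, sensors of foreign nucleic acid, GTPases that attack intracellular pathogens and the factors that amplify the response itself. In the lung, epithelial cells, macrophages and lymphocytes can all express them.

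Promoter sequences are shown because the factors that interferon activates bind these elements there. Of the 42 genes, 31 had a promoter entry in the RefSeq table of build GRCm38.p6, which gives 300 bases, 250 before the transcription start and 50 after it. Both strands were searched for the ISRE core GAAANNGAA and the GAS core TTCNNNGAA. The ISRE core was present for 18 of the 31 genes (58.1%). Counted by promoter, it was in 19 of their 38 promoters (50.0%), against 8.56% of all 32851 promoters of that length. The GAS core was present for 10 of the 31 genes (32.3%) and in 10 of the 38 promoters (26.3%), against 8.30% of all promoters. Both motifs occurred for 6 genes, namely Bst2, Gbp5, Gbp7, Igtp, Oas1a and Tgtp1. The genes without an entry were Ifi27l2a, Usp18, Dhx58, Mx1, Mx2, Parp9, Parp14, Oas2, Iigp1, Zbp1 and Rtp4. Of the 8 guanylate-binding and immunity-related GTPase genes with an entry, 7 held the ISRE core. The following stretches of 120 bases, all upstream of the start, each hold at least 1 match, with the matching bases in capitals. They are printed 5′ to 3′ on the strand of the gene, and a match on the opposite strand appears as its reverse complement.
Isg15 (chr4:156200819-156200938, - strand): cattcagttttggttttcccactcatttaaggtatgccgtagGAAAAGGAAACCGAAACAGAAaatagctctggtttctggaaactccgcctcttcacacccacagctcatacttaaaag
Ifit1 (chr19:34640754-34640873, + strand): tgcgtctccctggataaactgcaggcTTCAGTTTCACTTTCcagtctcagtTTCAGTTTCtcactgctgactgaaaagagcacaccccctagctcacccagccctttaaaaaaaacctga
Oas1a (chr5:120907526-120907645, - strand): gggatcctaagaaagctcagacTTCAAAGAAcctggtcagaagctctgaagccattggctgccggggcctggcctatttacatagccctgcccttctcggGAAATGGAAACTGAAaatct
Gbp3 (chr3:142559924-142560043, + strand): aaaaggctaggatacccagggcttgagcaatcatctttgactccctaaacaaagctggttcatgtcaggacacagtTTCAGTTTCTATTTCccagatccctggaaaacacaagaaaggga
Stat2 (chr10:128270248-128270367, + strand): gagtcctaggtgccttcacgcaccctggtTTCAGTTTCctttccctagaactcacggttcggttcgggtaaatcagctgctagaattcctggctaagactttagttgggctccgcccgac
Igtp (chr11:58199436-58199555, + strand): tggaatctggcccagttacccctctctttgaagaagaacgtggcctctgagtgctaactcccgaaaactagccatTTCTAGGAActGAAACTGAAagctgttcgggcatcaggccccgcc
Irf1 (chr11:53769873-53769992, + strand): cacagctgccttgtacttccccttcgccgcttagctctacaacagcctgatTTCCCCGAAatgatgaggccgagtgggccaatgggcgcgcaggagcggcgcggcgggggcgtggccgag
Longer capital runs in Isg15, Ifit1, Oas1a and Gbp3 are ISRE cores that overlap each other. Oas1a and Igtp held both cores, and Irf1 held the GAS core without the ISRE core. A match describes letters in the reference sequence and not a bound site.

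Library totals ranged from 4116116 to 9237385 counts, with a median of 7524817, so that 3 counts corresponded to 0.325 to 0.729 CPM (counts scaled to the depth of the library). Levels are given in CPM scaled by the trimmed mean of M-values (TMM) and cover all cells of the lung, so fewer cells of a type and less RNA per cell cannot be told apart. In 2 libraries, WT vehicle 122 and KO vehicle 137, protein-coding genes took 65.3% and 61.3% of the counts, against 74.4% to 80.4% in the others. Counts of calls are therefore also given without both. Markers of alveolar type 2 cells summed to 3151 CPM or more in every library, lowest in KO vehicle 137. Counts of Ppara, the targeted gene, did not separate the genotypes by loss. They were 4.39 to 7.21 CPM in WT, 8.82 to 11.7 in KO and 9.08 to 20.4 in KI libraries, and KO exceeded WT by 0.78 ± 0.19 (log2, SE; edgeR adjusted p = 0.0362). Which exons the null allele keeps is not given in the sources used here, so this value does not check the KO label, and every genotype below is the genotype as labelled.

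The 42 genes covered a wide span of abundance. On the scale of mean CPM per kilobase of exon, Ifit3, which blocks translation of viral RNA as part of the IFIT complex, was the most abundant at 31.6, followed by Ifi35 at 16.4, the ADP-ribosyltransferase Parp14 at 16.1 and the transcription factor Irf1 at 15.2. The least abundant on this scale were Oas3 at 0.270, Oasl1 at 1.04, Mx1 at 1.06 and Ifi44 at 1.31. Total counts over the 17 libraries ran from 235 for Oas3 to 18662 for Parp14, so folds of the low genes carry the larger counting error. Reads of close relatives are divided by the estimated counts, and values of Tgtp1 and its near copy Tgtp2, of Ifit3, of Oas1a and of the neighbouring Gbp genes are uncertain to that extent. Igtp overlaps Irgm2 on the same strand, and Parp9 overlaps Dtx3l and Irf7 overlaps Phrf1 on opposite strands. How the counting used the strand is not given in the sources used here.

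**Figure D1:**
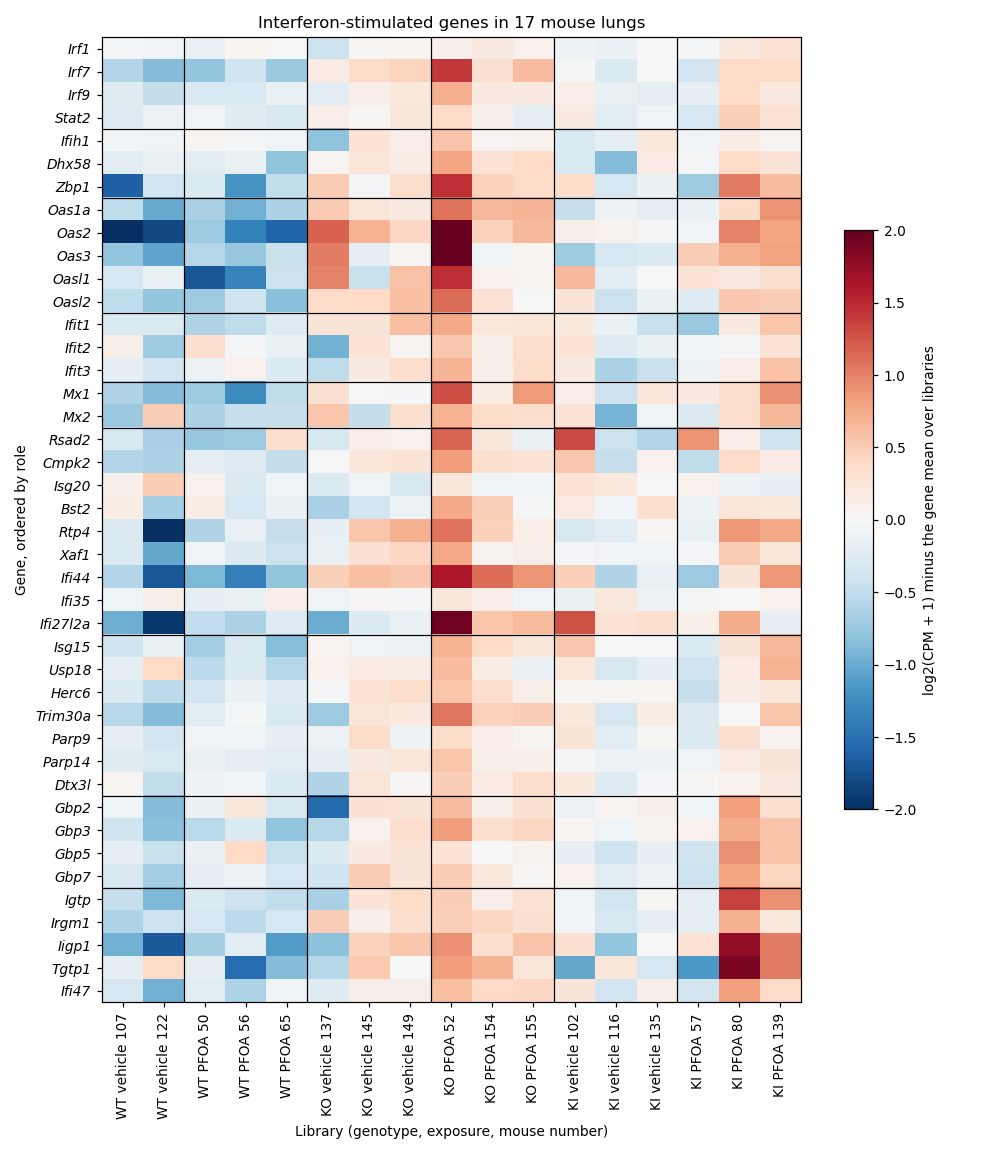
Level of each of the 42 interferon-stimulated genes (rows, ordered by role, lines between roles) in each of the 17 libraries (columns, lines between groups), as log2(CPM + 1) minus the gene's mean over libraries, with colours capped at 2 in either direction. The 5 WT columns are mostly blue, KO PFOA 52 is the reddest column, and the GTPase rows at the bottom are reddest in KI PFOA 80.

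The first question was whether interferon-stimulated genes differed between the genotypes, taking vehicle and PFOA libraries together with the exposure as a term. Against WT, 12 of the 42 genes were called higher in KO and 0 lower, where a call required an edgeR adjusted p under 0.2 together with more than 2-fold change. Over all 26946 genes, 2.36% were called in this comparison in either direction. The 12 were Oas2, Oas3, Oas1a, Oasl1, Oasl2, Ifi44, Irf7, Mx1, Zbp1, Ifi27l2a, Iigp1 and Rtp4. In KI against WT, 9 of the 42 were called higher and 0 lower, with 1.37% of all genes called. The 9 were Oas2, Oas1a, Oas3, Mx1, Ifi44, Iigp1, Ifi27l2a, Zbp1 and Isg15. These comparisons share the 5 WT libraries, so their values are set side by side and their likeness is not a separate result. The median log2 fold change of the 42 genes was 0.76 in KO and 0.54 in KI, against 0.02 and 0.01 over all genes tested, and 41 of the 42 were above 0 in each. The exception in each was Isg20, at -0.18 ± 0.15 in KO and -0.03 ± 0.15 in KI (SE).

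Oas2 (chr5:120730333-120749853, - strand, mm10) had the largest fold change of the 42 in both comparisons. It encodes an oligoadenylate synthetase, an enzyme that senses double-stranded RNA and makes the messenger that activates RNase L. Its level was 0.932 and 1.31 CPM in WT vehicle and 3.93, 2.19 and 1.67 CPM in WT PFOA libraries. It was 17.3, 12.1 and 9.79 CPM in KO vehicle and 38.4, 10.2 and 11.7 CPM in KO PFOA libraries. It was 7.80, 7.51 and 6.89 CPM in KI vehicle and 6.85, 15.2 and 13 CPM in KI PFOA libraries. The lowest KO and KI libraries thus lay above the highest WT library, and within KO the highest value belonged to mouse 52. The log2 fold change was 3.12 ± 0.36 in KO (SE; edgeR adjusted p = 3.14e-05) and 2.33 ± 0.36 in KI (SE; edgeR adjusted p = 0.0012). It was called in both under every alternative run. The WT level rests on few reads, 7 in WT vehicle 107.

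The other members of the OAS family followed in KO, where all 5 were called. Oas1a was 3.20, 1.97, 2.79, 2.05 and 2.83 CPM in the WT libraries, 5.78 to 11.7 CPM in KO (median 7.95) and 3.34 to 10.1 CPM in KI (median 4.52), with no overlap of either with WT. Its log2 fold changes were 1.64 ± 0.24 in KO and 1.12 ± 0.24 in KI (SE; edgeR adjusted p = 0.000535 and 0.0246). Oas3 was 0.164 to 0.771 CPM in WT, which is 1 to 6 counts a library, 1.13 to 9.83 CPM in KO and 0.478 to 3.21 CPM in KI. The KO libraries lay above WT and the KI libraries overlapped with it, and the log2 fold changes were 2.80 ± 0.57 and 1.91 ± 0.58 (SE; edgeR adjusted p = 0.0102 and 0.153). Oasl2 had log2 fold changes of 1.20 ± 0.20 in KO (edgeR adjusted p = 0.00154) and 0.80 ± 0.20 in KI (edgeR adjusted p = 0.0524), the second below 2-fold. Oasl1, which represses Irf7 translation, was called in KO alone, at 1.92 ± 0.55, with 1.43 ± 0.55 and an edgeR adjusted p of 0.337 in KI.

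**Figure D2:**
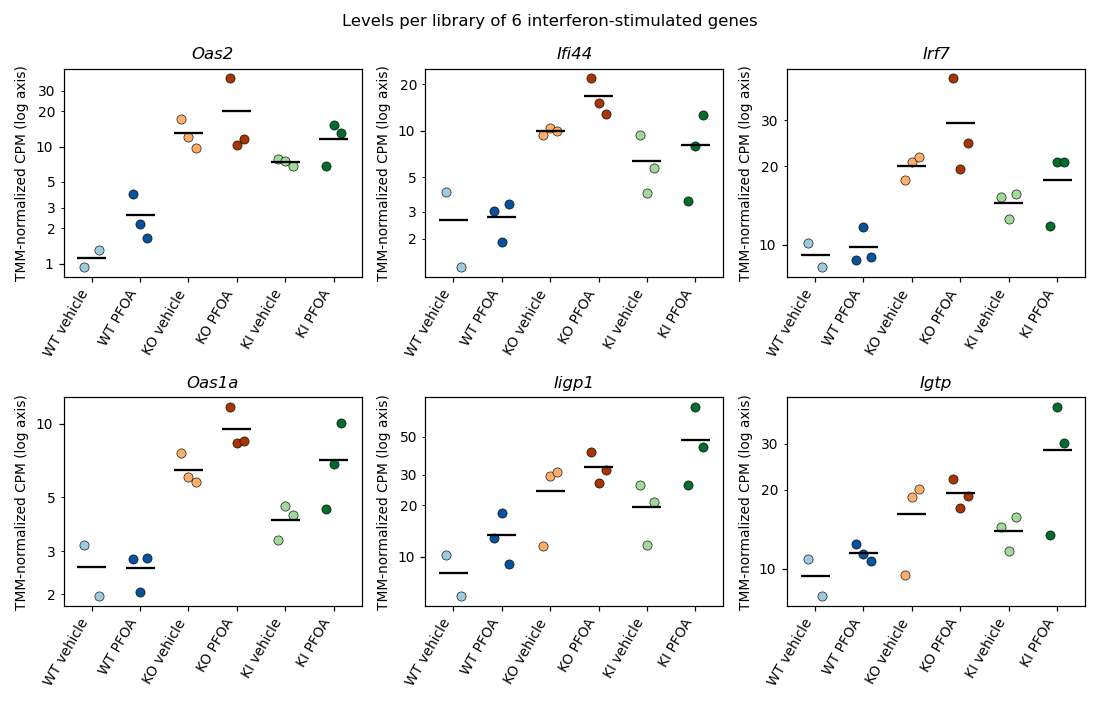
TMM-normalized CPM (log axis) of Oas2, Ifi44, Irf7, Oas1a, Iigp1 and Igtp in each library (points) of the 6 groups, with the group mean as a bar. WT points of Oas2 stay at or below 3.93 CPM while KO and KI points start at 6.85 CPM, and the highest Iigp1 and Igtp points, 74.4 and 41.4 CPM, belong to KI PFOA 80.

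Among the transcription factors, Irf7 stood apart from the rest. IRF7 is the factor that drives the later, amplifying wave of interferon production. Irf7 (chr7:141262706-141266481, - strand) was 10.1, 8.19, 8.74, 11.7 and 9.0 CPM in the WT libraries, 17.7, 20.7, 21.7, 43.6, 19.6 and 24.5 CPM in the KO libraries and 15.3, 12.6, 15.6, 11.8, 20.7 and 20.8 CPM in the KI libraries, vehicle before PFOA in each. Every KO library exceeded every WT library and so did every KI library, the lowest of them by a small margin. The log2 fold change was 1.38 ± 0.20 in KO (SE; edgeR adjusted p = 0.000465) and 0.78 ± 0.20 in KI (SE; edgeR adjusted p = 0.0721), which in KI was below 2-fold. Irf9, the DNA-binding subunit of the type I complex, was 0.55 ± 0.13 and 0.37 ± 0.13, and its partner Stat2 was 0.34 ± 0.14 and 0.29 ± 0.14 (SE; edgeR adjusted p of Stat2 = 0.289 and 0.528). Stat2 was 41.1 to 49.2 CPM in WT, 44.6 to 68.2 CPM in KO and 40.3 to 72.3 CPM in KI, and the 3 ranges overlapped. Irf1, an early target of interferon-γ, was 0.07 ± 0.10 and 0.11 ± 0.10. Of the cytosolic sensors, Zbp1, which detects Z-form nucleic acid, was called in both at 1.68 ± 0.38 in KO and 1.28 ± 0.38 in KI, while Ifih1, which encodes the RNA sensor MDA5, was 0.16 ± 0.16 and 0.04 ± 0.16 and Dhx58 was 0.74 ± 0.23 and 0.34 ± 0.23.

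The antiviral effectors divided into those that moved with genotype and those that did not pass. Ifi44 (chr3:151730922-151749960, - strand) was 4.0, 1.31, 3.04, 1.90 and 3.34 CPM in WT, 9.44 to 21.9 CPM in KO (median 11.6) and 3.54 to 12.7 CPM in KI (median 6.87). All KO libraries lay above WT, whereas the lowest KI libraries overlapped with it. The log2 fold changes were 2.28 ± 0.32 in KO and 1.41 ± 0.33 in KI (SE; edgeR adjusted p = 0.00037 and 0.0382). Mx1, a dynamin-like GTPase that blocks influenza virus, was 2.0, 1.47, 1.77, 0.877 and 2.18 CPM in WT, 3.39 to 10.1 CPM in KO and 2.42 to 7.55 CPM in KI, without overlap. Its log2 fold changes were 1.70 ± 0.31 and 1.45 ± 0.31 (SE; edgeR adjusted p = 0.00473 and 0.0233). The annotation lists Mx1 and Mx2 as polymorphic pseudogenes, because laboratory strains differ in these genes. Ifi27l2a, a small mitochondrial protein gene, was 1.69 ± 0.46 in KO and 1.79 ± 0.47 in KI, and Rtp4 was 1.33 ± 0.32 and 0.97 ± 0.32, called in KO only. Rsad2, which encodes viperin, was 0.73 ± 0.38 and 0.81 ± 0.38 with edgeR adjusted p = 0.444 and 0.502, and Bst2 (tetherin), Ifi35 and Isg20 passed in neither comparison. Rsad2 was highest in KI vehicle 102, KO PFOA 52 and KI PFOA 57, at 20.9, 18.6 and 15.2 CPM. The cardiac muscle marker Myh6 was 5543, 1345 and 5079 CPM in these libraries. WT PFOA 65 had 3398 CPM of Myh6 and 10.2 CPM of Rsad2. In KI PFOA 139, KI vehicle 116, KI vehicle 135 and KO vehicle 137, Myh6 was 1776, 1761, 1619 and 1485 CPM. Rsad2 was 5.59, 5.47, 4.78 and 5.99 CPM there. The part of heart tissue was not tested.

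None of the 3 IFIT genes, whose products bind foreign RNA and block its translation, was called in KO or KI. Ifit1 was 14, 14.1, 11.2, 11.8 and 14.4 CPM in WT, 20.2 to 30.2 CPM in KO and 9.93 to 25.9 CPM in KI libraries. KO lay wholly above WT, and KI overlapped with it on both sides. The log2 fold change of Ifit1 was 0.84 ± 0.20 in KO (SE; edgeR adjusted p = 0.0293, under 2-fold) and 0.40 ± 0.20 in KI (SE; edgeR adjusted p = 0.543). Ifit2 and Ifit3 had 0.21 ± 0.19 and 0.44 ± 0.17 in KO. In the ubiquitin-like and ADP-ribosylation group, Isg15, which encodes the ubiquitin-like modifier, was 1.60, 2.13, 1.14, 1.75 and 0.900 CPM in WT, 2.13 to 4.52 CPM in KO and 1.83 to 4.33 CPM in KI libraries. The KO libraries reached down to the highest WT library without overlap, and KI overlapped with WT. The log2 fold change of Isg15 was 1.0 ± 0.32 in KO and 1.0 ± 0.32 in KI, close to 2-fold in both and called in KI only (edgeR adjusted p = 0.127 and 0.184). Usp18, which removes ISG15 and dampens receptor signalling, was 0.41 ± 0.22 and 0.29 ± 0.22 and did not pass. Herc6, Trim30a and Parp14 had an adjusted p under 0.2 in KO at less than 2-fold, with 0.60 ± 0.12, 0.82 ± 0.20 and 0.42 ± 0.11.

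The guanylate-binding proteins and immunity-related GTPases, 9 genes that are strongly induced by interferon-γ and act on the vacuoles of intracellular pathogens, held 1 call in KO and 1 in KI, Iigp1 in both. Iigp1 was 10.3, 5.90, 12.9, 18 and 9.12 CPM in WT, 11.5, 29.4, 31.1, 40.7, 26.8 and 31.8 CPM in KO and 26.1, 11.7, 20.9, 26, 74.4 and 43.7 CPM in KI libraries. KO vehicle 137 and KI vehicle 116 were within the WT range and the remaining KO and KI libraries were above it. The log2 fold changes were 1.47 ± 0.31 in KO (SE; edgeR adjusted p = 0.0132) and 1.60 ± 0.31 in KI (SE; edgeR adjusted p = 0.00917). Gbp3 passed the adjusted p in both but not the fold, at 0.91 ± 0.18 and 0.88 ± 0.18 (edgeR adjusted p = 0.00694 and 0.0134). Igtp was 7.86 to 12.4 CPM in WT, 9.44 to 22.1 CPM in KO and 11.7 to 41.4 CPM in KI, with log2 fold changes of 0.80 ± 0.25 and 0.98 ± 0.25 (edgeR adjusted p = 0.122 and 0.0634). Gbp2 was 0.40 ± 0.24 and 0.47 ± 0.24, with edgeR adjusted p = 0.533 and 0.575. Its levels, 17.9 to 39.2 CPM in WT, 10.8 to 52.1 CPM in KO and 30.7 to 60.1 CPM in KI, overlapped. The lowest Gbp2 value of all was that of KO vehicle 137.

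**Figure D3:**
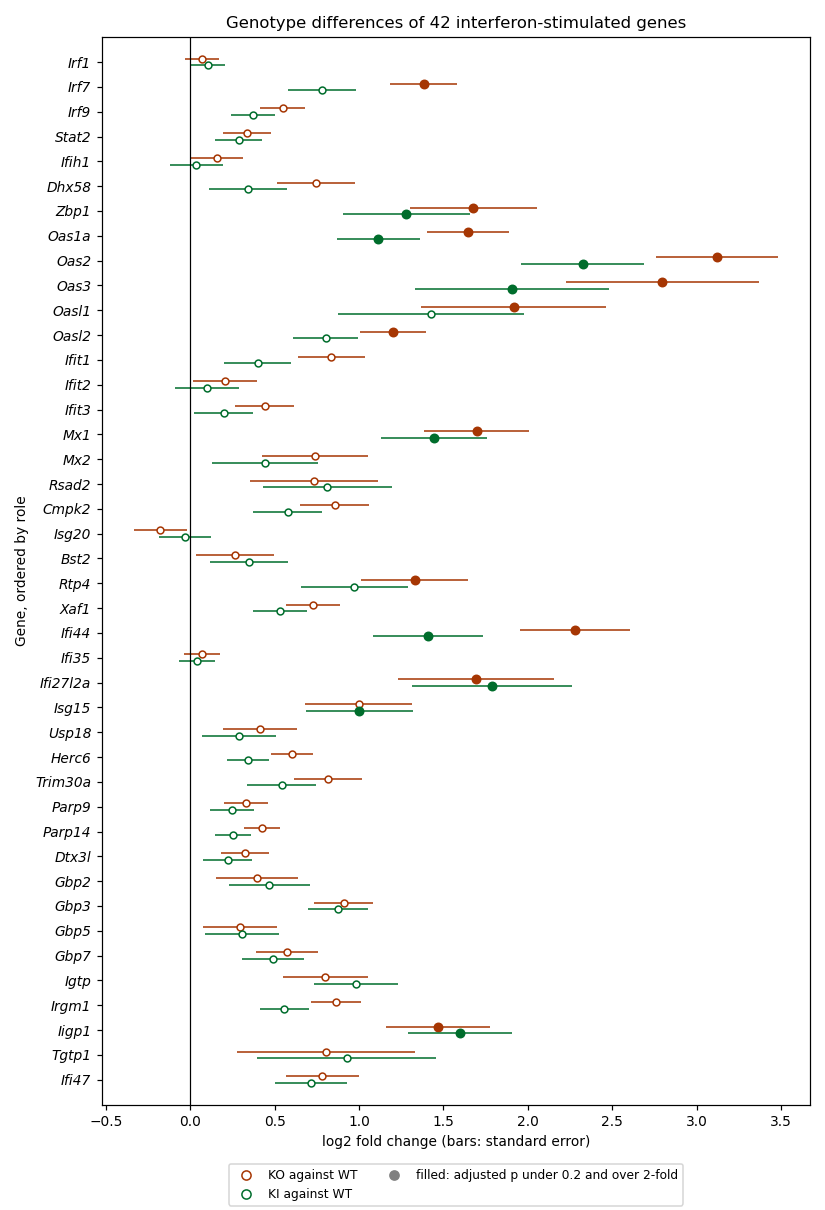
Log2 fold change (points) with its standard error (bars) of each of the 42 genes in KO against WT and in KI against WT over both exposures, with filled points for genes called at an adjusted p under 0.2 and over 2-fold. Of the genes, 12 are filled in KO and 9 in KI, all to the right of 0, with Oas2 farthest right at 3.12 and 2.33.

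Without any model, 14 of the 42 genes had all 6 KO libraries above all 5 WT libraries, against 1.2% of all genes, and 8 had all 6 KI libraries above WT, against 0.943% of all genes. No gene had KI wholly above KO, against 0.0705% of all genes. The calls varied with the samples. Within vehicle libraries alone 6 genes were called in KO (1.37% of all genes) and 2 in KI (0.857%) against WT, the latter Oas2 and Ifi27l2a. Within PFOA libraries 13 were called in KO (1.01%) and 6 in KI (0.527%). With the i5 index of the library as a term, which all KO PFOA libraries shared, 7 genes were called in KO (1.74%) and 7 in KI (1.19%). With sex as a term, 12 were called in KO (1.59%) and 5 in KI (1.54%). Without WT vehicle 122 and KO vehicle 137, chosen after the values were seen, 14 were called in KO (2.46%) and 10 in KI (2.05%). Leaving out 1 library at a time gave 10 to 14 calls in KO and 5 to 11 in KI, the lowest of KI being 5 without WT PFOA 56, 5 without KI PFOA 139 and 6 without KI PFOA 80.

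KI and KO, which came from the same colony, were also compared directly. In KI against KO, 0 of the 42 genes were called by edgeR, with 0.00742% of all genes called, and 8 genes had an unadjusted p under 0.05, each of them lower in KI, against 2.52% of all genes lower. DESeq2 called 0 of the 42 and 0.0408% of all genes. The median log2 fold change of the 42 was -0.15, against -0.01 over all genes. The smallest p-values were those of Irf7, at -0.60 ± 0.18, Ifi44, at -0.87 ± 0.28, Oas2, at -0.79 ± 0.29, and Oas1a, at -0.53 ± 0.21 (SE), each with an edgeR adjusted p of 1. The 9 GTPase genes had a median of 0.01 and ranged from -0.31 to 0.18, while the 5 OAS genes ranged from -0.89 to -0.40. The difference between these groups of genes was not tested.

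Markers of some cell types also differed from WT, in comparisons where 2.36% of all genes were called in KO and 1.37% in KI. Of 12 NK and T cell markers, 4 were called higher in KO and 4 in KI against WT, and their summed level was 16.5 to 55.2 CPM in WT, 40.5 to 108 CPM in KO and 41.1 to 73.6 CPM in KI libraries. Of 6 B cell markers, 4 were called in each, with sums of 14.6 to 84.3 CPM in WT, 35.2 to 196.8 CPM in KO and 30.3 to 265 CPM in KI. Of 7 monocyte markers, 2 were called in KO and 1 in KI, with sums of 47.3 to 78.9, 42.8 to 156 and 37.7 to 105 CPM. Of 5 neutrophil markers tested, 1 was called in KO. Of 6 cardiac muscle markers, 0 were called, with sums of 329 to 4072 CPM in WT, 276 to 1909 in KO and 562 to 7119 in KI. For markers of plasmacytoid dendritic cells, which are major producers of type I interferon, of alveolar macrophages, of endothelium and of alveolar and airway epithelium, 0 were called. Of the NK, T and B cell markers, only Ncr1, an NK cell receptor, was at 0 in any library, and that in 1. The part of lymphocytes or of cardiac muscle in the genotype difference was not tested.

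The rest of the pathway was read from lists of 138 genes, of which 114 were tested. Interferons themselves gave few reads. Of 23 interferon genes listed 4 were tested, and interferon-γ (Ifng) had 22 counts in all, in 8 of the 17 libraries, with at most 5 in one library. Interferon-β was not analysed here. None of the 6 interferon receptor genes, 5 JAK-STAT genes, 17 sensing genes or 6 feedback inhibitors tested was called in KO or KI against WT. Some had an adjusted p under 0.2 at less than 2-fold, among them 3 sensing genes in KO and 1 in KI, each higher. With no fold threshold, 848 of all 26946 genes were higher in KO and 456 in KI at that adjusted p.

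Among 76 other induced genes, 13 were called in KO and 11 in KI against WT, all of them higher. Over all genes, 2.36% were called in KO and 1.37% in KI, in either direction. Ifi213, of the DNA-binding p200 family on chromosome 1, was 0.133, 0.328, 0.253, 0.146 and 0.643 CPM in WT, 25.6, 31, 27.8, 52.4, 31.3 and 34.8 CPM in KO and 25.5, 23, 27.4, 17.2, 27.5 and 33.3 CPM in KI libraries. The WT values are at or under the level of 3 counts, except 0.643 CPM in WT PFOA 65, and the fitted log2 fold changes of 6.74 ± 0.30 and 6.36 ± 0.31 (SE; edgeR adjusted p = 1.79e-11 and 4.06e-11) rest on them. Its relatives were called as well, with Ifi209 at 2.48 ± 0.33 and 2.25 ± 0.33, Ifi211 at 1.95 ± 0.32 and 1.69 ± 0.33 and Ifi203 at 1.58 ± 0.23 and 1.21 ± 0.23. For these p200 genes too, colony and genotype cannot be told apart. Nlrc5, the transactivator of MHC class I genes, was 1.57 ± 0.20 in KO and 1.52 ± 0.20 in KI. Other GTPases called in both were Gbp4 at 1.86 ± 0.31 and 1.75 ± 0.30, Gbp6 at 1.62 ± 0.23 and 1.30 ± 0.23, Irgm2 at 1.28 ± 0.25 and 1.17 ± 0.25, and Tgtp2 at 1.23 ± 0.30 and 1.31 ± 0.29. Slfn8 was 1.61 ± 0.30 and 1.38 ± 0.30, and Phf11b was 1.45 ± 0.42 and 1.37 ± 0.42. Apol9a, at 2.39 ± 0.73, and Oas1g, a close copy of Oas1a, at 2.30 ± 0.78, were called in KO only.

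The second question was whether PFOA changed the interferon-stimulated genes. No gene of the 42 was called by edgeR within WT (0% of all genes called), KO (0%) or KI (0%), nor over the 3 genotypes together (0%), where exposure was fitted beside genotype. At an unadjusted p under 0.05, over the 3 genotypes, 19 of the 42 were higher on PFOA and 0 lower, against 3.8% of all genes higher. The median log2 fold change of the 42 was 0.28, against -0.01 over all genes, and 39 were above 0. With its own filters, DESeq2 called 0 of the 42 here (0.0816% of all genes), 0 in WT (0.275%) and 0 in KI (0.00371%), and 1 in KO (0.267%). The count of 19 fell to 10 with the protein-coding share as a term and to 11 without WT vehicle 122 and KO vehicle 137. For these refits the share of all genes is not given here, so changes of the count cannot be read as particular to the 42. The count was 7 without KO PFOA 52, 9 without KI PFOA 80, 9 without KI vehicle 116, 10 without KI PFOA 139, 11 without KI vehicle 135 and 12 without KO vehicle 137. It was 21 without WT vehicle 107 and 24 without KI PFOA 57.

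The genes with the smallest p-values over the 3 genotypes were Iigp1, Oas3, Gbp3 and Trim30a. Iigp1, whose values per library are given above, was higher on PFOA by 0.83 ± 0.24 on the log2 scale (SE; edgeR adjusted p = 0.457). Gbp3 was 17.6 and 12.8 CPM on vehicle and 16, 19.4 and 13.2 on PFOA in WT, 15.7, 25.2 and 30.0 and 43.2, 29.6 and 31.8 in KO, and 24.4, 22.1 and 24.7 and 25, 40.1 and 35.6 in KI. PFOA and vehicle libraries of Gbp3 overlapped in WT and KO and did not overlap in KI, and the log2 fold change was 0.41 ± 0.14 (SE; edgeR adjusted p = 0.468). Oas3 was 1.32 ± 0.43 and Trim30a, a RING-domain regulator of inflammatory signalling, was 0.46 ± 0.16 (edgeR adjusted p = 0.468 and 0.485). By role, 7 of the 9 GBP and immunity-related GTPase genes, 3 of 5 OAS genes and 3 of 4 transcription factors had an unadjusted p under 0.05 here, and 0 of 3 cytosolic sensors did. Of all genes, 3.8% were higher at that p. The genes varied together from mouse to mouse, as given below, so those counted in a role are not separate results.

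Within WT, only Ifi27l2a was higher at an unadjusted p under 0.05 (3.12% of all genes) and only Usp18 lower (4.23% of all genes), and the median of the 42 was 0.11 against 0.04 over all genes. Ifi27l2a was 1.86 and 0.491 CPM on vehicle and 3.04, 2.63 and 3.73 CPM on PFOA, with a log2 fold change of 1.35 ± 0.64 (SE; edgeR adjusted p = 0.676). Leaving out WT vehicle 107 leaves 1 vehicle library, 122, which stands apart in its protein-coding share, and its spread is then taken from the other groups. That fit called 2 of the 42 genes, Ifi27l2a and Rtp4, and 6.25% of all genes, so the share of the 42 was no larger than that of all genes. Usp18 was 12.4 and 18.8 CPM on vehicle and 9.5, 11.4 and 9.12 CPM on PFOA (-0.64 ± 0.30, SE), Isg20 was -0.43 ± 0.21, and Oasl1 was 1.60 and 1.97 CPM on vehicle and 0, 0.292 and 1.41 on PFOA (-1.60 ± 0.86, SE). Usp18, Isg20 and Oasl1 were the 3 genes whose PFOA libraries all lay below vehicle (10.9% of all genes), and 7 genes had all PFOA libraries above vehicle (11.6% of all genes). Leaving out 1 library at a time gave 0 to 4 higher genes at an unadjusted p under 0.05, with 4 without WT vehicle 107 and 0 without WT vehicle 122.

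In KO, 6 of the 42 genes were higher on PFOA at an unadjusted p under 0.05 (3.74% of all genes) and 0 lower, 41 were above 0, and the median was 0.35 against -0.03 over all genes. Ifi27l2a was 1.84, 3.66 and 4.14 CPM on vehicle and 20.9, 7.35 and 7.78 CPM on PFOA, with a log2 fold change of 1.85 ± 0.46 (SE; edgeR adjusted p = 0.434). DESeq2 called this gene alone among the 42, at 1.83 with an adjusted p of 0.129 with its own filters and 0.157 without them. Bst2, which encodes tetherin and holds budding virus at the cell surface, was 4.38, 5.49 and 6.78 CPM on vehicle and 13.3, 10.8 and 7.18 CPM on PFOA (0.89 ± 0.28, SE; edgeR adjusted p = 0.472). Trim30a was 13.8, 28.1 and 27.2 CPM on vehicle and 50.4, 32.8 and 33.5 CPM on PFOA (0.73 ± 0.26, SE), and Mx1 was 4.61, 3.52 and 3.39 and 10.1, 4.05 and 7.18 CPM (0.90 ± 0.38, SE). For Ifi27l2a, Bst2 and Trim30a the PFOA libraries all lay above vehicle, as for 11 of the 42 genes against 6.82% of all genes. Mouse 52 was the highest PFOA library for each of these genes, and without it 2 genes were at an unadjusted p under 0.05 in place of 6. Without KO PFOA 154 the number was 10. Leaving out KO vehicle 137, the vehicle library that stands apart, gave 5. These counts stand without the share of all genes in the same refits and cannot be read as particular to the 42.

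In KI, 8 of the 42 genes were higher at an unadjusted p under 0.05 (1.47% of all genes) and 0 lower, with a median of 0.32 against 0.01 over all genes. Of these 8, 6 were GBP or immunity-related GTPase genes, namely Iigp1, Igtp, Gbp5, Gbp3, Irgm1 and Tgtp1, and the other two were Oas1a and Oas3. Igtp (chr11:58199556-58207591, + strand) was 14.5, 11.7 and 15.7 CPM on vehicle and 13.5, 41.4 and 30.0 CPM on PFOA, a log2 fold change of 1.02 ± 0.31 (SE; edgeR adjusted p = 1). Iigp1 was 26.1, 11.7 and 20.9 CPM on vehicle and 26, 74.4 and 43.7 CPM on PFOA, 1.30 ± 0.39 (SE; edgeR adjusted p = 1). Gbp5, an inflammasome-promoting GTPase, was 13.2, 11.3 and 13.5 CPM on vehicle and 11.4, 29.8 and 23.2 CPM on PFOA, 0.76 ± 0.28 (SE), and Oas1a was 0.80 ± 0.30 (SE). For Igtp, Iigp1 and Gbp5 mice 80 and 139 were above the vehicle libraries and mouse 57 lay within their range. Mouse 57 was male and mice 80 and 139 were female, so sex and mouse cannot be told apart here. Only Oas3, Xaf1 and Gbp3 had all PFOA libraries above vehicle, 3 of the 42 against 4.45% of all genes. Without KI PFOA 80 there were 3 genes at an unadjusted p under 0.05, without KI vehicle 102 or KI vehicle 116 there were 5 each, and without KI PFOA 57 there were 18. The share of all genes in each of these refits is not given here. A change of the count therefore cannot be read as particular to the 42.

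**Figure D4:**
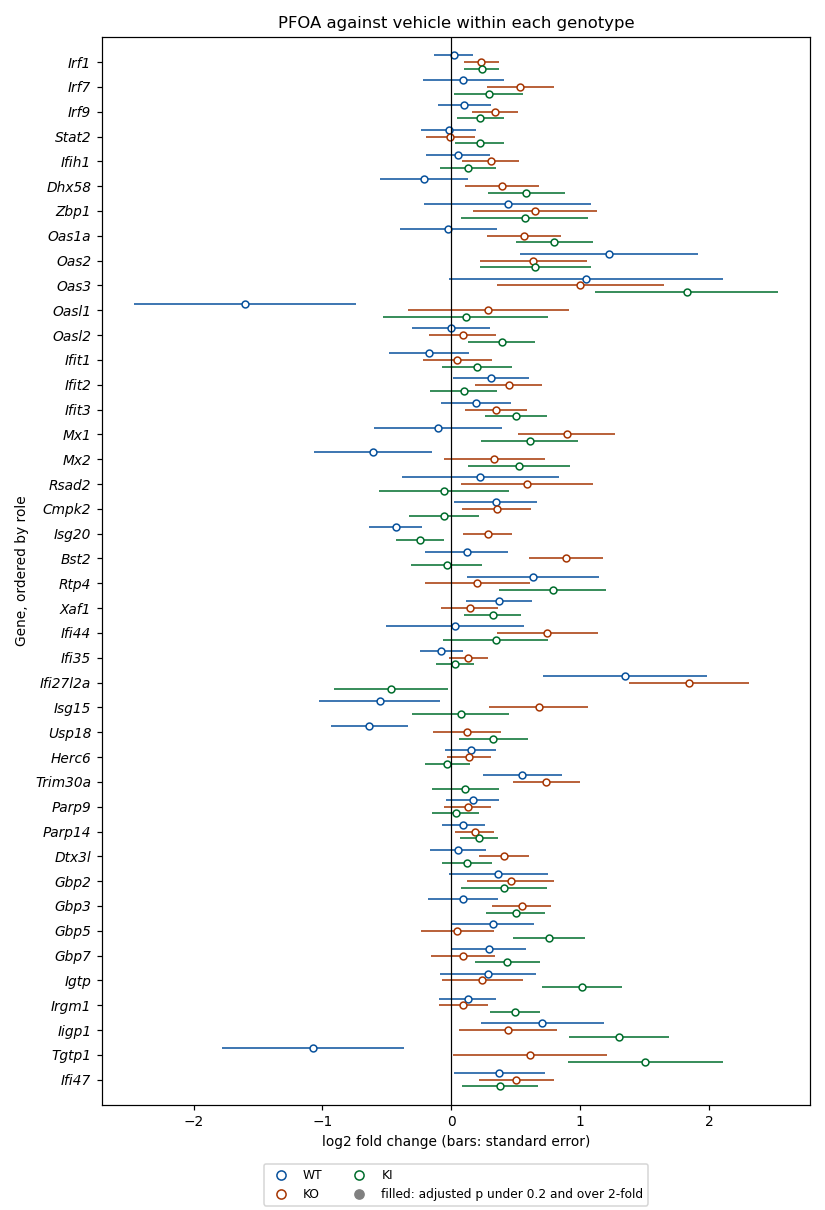
Log2 fold change on PFOA (points) with its standard error (bars) of each of the 42 genes within WT, KO and KI; filled points would mark genes called at an adjusted p under 0.2 and over 2-fold, and none is filled. In KO 41 of 42 points lie right of 0, in KI the immunity-related GTPases Iigp1 and Tgtp1 lie at 1.30 and 1.5, and in WT Oasl1 and Tgtp1 lie left of 0.

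Whether the effect of PFOA differed between genotypes was tested directly. No gene of the 42 was called for KO minus WT (0% of all genes), KI minus WT (0%) or KI minus KO (0%), and the medians were 0.21, 0.19 and -0.05. At an unadjusted p under 0.05 in either direction there were 1, 3 and 2 of the 42 genes, against 7.46%, 4.58% and 5.42% of all genes, shares that do not set the 42 apart. The 2 in KI minus KO were Ifi27l2a, at -2.31 ± 0.64 (SE; edgeR adjusted p = 0.909), and Bst2, at -0.93 ± 0.40. In KI minus WT they were Tgtp1, at 2.58 ± 0.93, Ifi27l2a, at -1.82 ± 0.78, and Usp18, at 0.96 ± 0.40, and in KO minus WT the gene was Isg20. KO minus WT and KI minus WT share the WT libraries. The larger counts in KO and KI than in WT are not shown to be a difference between genotypes. Among the 114 pathway genes, 0 were called in any PFOA comparison.

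The cell markers are given by exposure too. Summed NK and T cell markers were 16.5 to 31.6 CPM in WT vehicle and 47.2 to 55.2 in WT PFOA, 40.5 to 51.2 and 75.8 to 108 in KO, and 41.1 to 68.8 and 47.7 to 73.6 in KI libraries. B cell markers were 14.6 to 33.2 and 44.0 to 84.3 CPM in WT, 35.2 to 77.7 and 86.9 to 197 in KO, and 30.3 to 265 and 53.9 to 106 in KI. Monocyte markers were 47.29 to 47.33 and 69.0 to 78.9 CPM in WT, 42.8 to 77.1 and 104 to 156 in KO, and 37.7 to 103 and 83.0 to 105 in KI. Vehicle and PFOA libraries of these 3 lists did not overlap in WT or in KO, higher on PFOA in both, and overlapped in KI. Of all genes, 11.6% lay wholly higher on PFOA in WT, which had 2 vehicle libraries, 6.82% in KO and 4.45% in KI. Other lists separated in WT too. Plasmacytoid dendritic cell (197 to 282 and 297 to 328 CPM) and endothelial markers (1473 to 2009 and 2174 to 2258 CPM) were higher on PFOA. Club cell (11433 to 24861 and 6753 to 8678 CPM) and ciliated cell markers (368 to 621 and 229 to 323 CPM) were lower. Neutrophil markers, 19.3 to 25.6 and 51.2 to 71.3 CPM in KO, overlapped in WT and KI, and alveolar macrophage markers, 113 to 348 and 363 to 409 CPM in KO, overlapped in WT and were higher on PFOA in KI, at 257 to 275 and 280.3 to 380.1 CPM. No marker was called in a PFOA comparison, and the part of these cells in the values was not tested.

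A summary level, the mean of log2(CPM + 1) over the 42 genes minus its mean over libraries, placed the 17 mice in an order. The 5 WT libraries held the 5 lowest places, from -0.61 to -0.37. KO libraries ran from -0.12 to 0.86 and KI libraries from -0.24 to 0.50, so that KO and KI overlapped. The mean was -0.51 ± 0.14 in WT vehicle (SD, n = 2), -0.40 ± 0.03 in WT PFOA, 0.09 ± 0.18 in KO vehicle, 0.46 ± 0.34 in KO PFOA, -0.06 ± 0.18 in KI vehicle and 0.25 ± 0.36 in KI PFOA (SD, n = 3 each). The pooled SD within groups was 0.24. In KO the PFOA libraries started at 0.25, above the highest vehicle library at 0.22, and in KI the PFOA and vehicle libraries overlapped. KO PFOA 52 was highest at 0.86, ahead of KI PFOA 80 at 0.50 and KI PFOA 139 at 0.43. The third KI PFOA mouse, 57, was at -0.17, below 2 of the 3 KI vehicle libraries. It was the only male of its group.

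The individual mice at the top differed in which genes were high. In KO PFOA 52 the 33 genes other than GBP and immunity-related GTPases stood at 0.93 and the 9 GTPase genes at 0.62. In KI PFOA 80 the order was the reverse, with 0.33 for the 33 genes and 1.09 for the GTPases, and KI PFOA 139 was at 0.38 and 0.61. KO vehicle 137, a library that stands apart in its protein-coding share, was at -0.02 for the 33 genes and -0.51 for the GTPases. Oas2 reached its highest level in KO PFOA 52 at 38.4 CPM, with 15.2 CPM in KI PFOA 80, whereas Iigp1 was 40.7 CPM in the first and 74.4 CPM in the second.

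**Figure D5:**
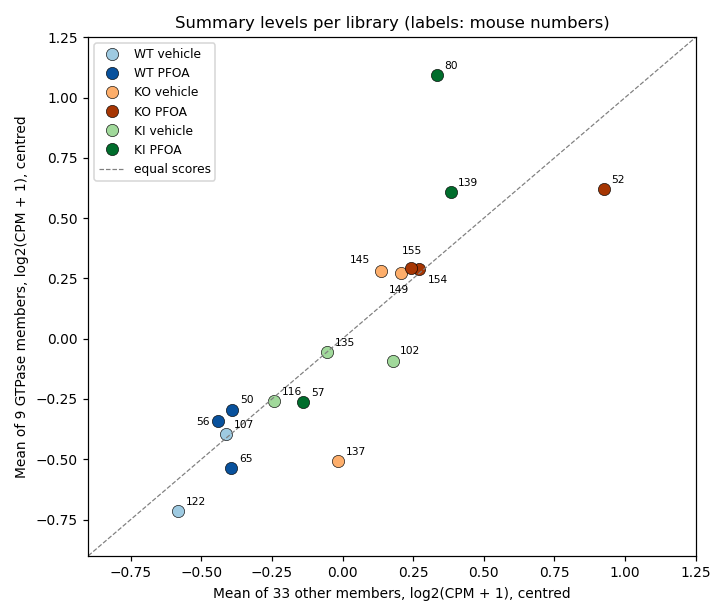
Mean centred log2(CPM + 1) of the 9 guanylate-binding and immunity-related GTPase genes (vertical axis) against that of the 33 other genes (horizontal axis) for each library, labelled by mouse number and coloured by group, with a dashed line of equal values. The 5 WT points lie at the lower left, KI PFOA 80 lies above the line at 1.09 and KO PFOA 52 below it at 0.93 on the horizontal axis.

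After removal of the group means, the genes still varied together from mouse to mouse. The correlation of a gene with the mean of the other 41 over the 17 libraries had a median of 0.68 and was over 0.5 for 31 of the 42 genes. It was highest for Irf9 at 0.93, Oasl2 at 0.90, Parp14 at 0.89 and Irf7 at 0.89, and lowest for Isg20 at 0.01, Ifi35 at 0.08, Rsad2 at 0.19 and Oasl1 at 0.26. These points share libraries, depth and composition, and the correlations are a description. Among genes outside the 42, those with a pattern most like the summary level included Gm2027 (r = 0.90), Gm4951 (0.89), Gbp6 (0.87), Gm4070 (0.86), Slc19a1 (0.86), Irgm2 (0.85), Rnf213 (0.85), Ifi206 (0.85) and Phf11b (0.83), with group means removed, over 17 libraries. Of these, Gbp6, Irgm2 and Phf11b were in the pathway lists.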

How the data were processed

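RNA-seq libraries were made from total lung RNA of 17 mice with a stranded total RNA kit. The deposited values are estimated counts per gene, which the authors made in Partek Flow from reads aligned with STAR 2.6 to the mouse genome mm10; 31.3% of the values were not whole and all were rounded. Strand use in the counting is not given in the sources used here. Genes with a total under 20 counts were left out, which left 26946 genes. Counts were fitted with edgeR 4.0.16 (quasi-likelihood F-test, TMM factors, R 4.3.3) over all 17 libraries. The fit was by group for PFOA within a genotype, for differences of its effect between genotypes and for genotypes within an exposure. It was by genotype plus exposure for the rest. P-values were Benjamini-Hochberg adjusted over all genes tested, and genes were called at more than 2-fold change with adjusted p under 0.2. Standard errors are those of the fitted log2 fold change. Alternatives included DESeq2 1.42.0, other scaling, filters and covariates, and leaving out each library. Replicates were separate mice, and no pair of libraries of a group agreed within sampling noise (chi-square per degree of freedom of at least 6.28). Gene positions are those of GENCODE M21, in which 96.7% of gene names were found once.

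The 42 genes, the pathway and marker lists and the tests were chosen with earlier results of these data known. Genes described in full were the 4 with the smallest p-value in each PFOA and genotype comparison and 1 of each role, and other genes are given as values from the same fits. Genes named under a left-out library or an added count were chosen after their values were seen. Scripts were tested on simulated data. Some values are not reported here.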

Additional observations from a re-analysis of the deposited data

Results flagged for a closer look

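Isg20, an exonuclease that degrades viral RNA, had fitted PFOA effects of opposite sign in WT and KO. Its log2 fold change was -0.43 in WT, where all PFOA libraries lay below the vehicle libraries (10.9% of all genes). It was 0.28 in KO, where all PFOA libraries lay above them (6.82% of all genes). The gaps were narrow, with 13.7 CPM in WT vehicle 107 and 13.6 CPM in WT PFOA 50. In KO they were 11.96 CPM in vehicle 145 and 12.03 CPM in PFOA 154. WT vehicle 122, which stands apart in its protein-coding share, was at 18.5 CPM. The difference of these effects was 0.71 ± 0.28 (SE; edgeR adjusted p = 0.669), which did not pass, and neither effect was called.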

How the results depend on the processing

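No called value changed its direction under the alternatives run. Members called in KO against WT, 12, were 7 with the i5 index as a term (1.74% of all genes) and 6 within vehicle libraries (1.37%). At an adjusted p under 0.05 with no fold threshold they were 19, against 517 of all 26946 genes in either direction. In KI against WT, 9 called genes became 5 with sex as a term (1.54% of all genes) and 2 within vehicle libraries (0.857%). At an adjusted p under 0.05 with no fold threshold they were 6, against 265 of all 26946 genes in either direction. On PFOA in KO, DESeq2 called 1 gene with its own filters (0.267% of all genes) and 1 without them, against 0. Without its filters, DESeq2 called 38 of all genes higher and 30 lower. Genes higher at an unadjusted p under 0.05 on PFOA in WT, 1, were 0 with filterByExpr, 0 with sex, 0 with the i5 index, 0 with the protein-coding share, 0 without libraries 122 and 137, and 2 in a fit of the 2 groups. Over the 3 genotypes, 19 such genes became 10 with the protein-coding share and 11 without libraries 122 and 137. The median difference of the PFOA effect, KI minus WT, was 0.60 with the i5 index in place of 0.19. The causes were not tested. Leaving out each library in turn gave 10 to 14 calls in KO against WT, 5 to 11 in KI against WT and 0 to 2 on PFOA in WT, 2 without WT vehicle 107, where 6.25% of all genes were called from 1 vehicle library. Genes higher at an unadjusted p under 0.05 were 0 to 4 in WT, 2 to 10 in KO, 3 to 18 in KI and 7 to 24 over the 3 genotypes, the lowest without KO PFOA 52 in KO and over the 3 genotypes and without KI PFOA 80 in KI, the highest without KI PFOA 57 in KI and over the 3 genotypes. Shares of all genes at this unadjusted p in the fits without 1 library are not given here. The median of the 42 genes stayed between 0.66 and 0.83 in KO against WT and between 0.40 and 0.62 in KI against WT. On PFOA it ran from 0.03 to 0.29 in WT, 0.14 to 0.49 in KO, 0.17 to 0.54 in KI and 0.23 to 0.34 over the 3 genotypes. The medians of the differences ran from -0.002 to 0.32 for KO minus WT, 0.09 to 0.43 for KI minus WT and -0.16 to 0.18 for KI minus KO. Of the 9 genes called in KI against WT, Oas2 and Ifi27l2a were called within vehicle libraries and the others were not, among them Iigp1 at 1.26 and Mx1 at 1.02. No paired analysis was possible because the labels give each mouse its own number and share none between groups. Depth limits genes with few counts in WT, such as Oas3, Oasl1, Isg15, Mx1 and Oas2.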
